A study of Homo sapiens with 6 samples.

Results

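The human mitochondrial genome carries 37 genes, and all 37 were measured among the 60651 genes of the count tables. The rule took every gene annotated on chrM and used no measured value. They comprise 13 mRNA genes, 2 rRNA genes and 22 tRNA genes, with 28 genes on the plus strand and 9 on the minus strand. The cells were SK-N-AS, an established neuroblastoma line without MYCN amplification, stably carrying a tetracycline repressor and a MYCN construct that tetracycline switches on. Single clones were kept under G418 and blasticidin, and all 6 libraries share this genetic background. The 3 control libraries came from cultures labelled ETOH, and the 3 MYCN-induced libraries from cultures labelled Tet that received tetracycline at 2 µg/ml. Samples were taken after 120 h, which the treatment protocol gives as 5 d. No library had tetracycline without the MYCN construct, so an effect of tetracycline and an effect of MYCN cannot be told apart. The question addressed here is how the levels of the mitochondrial transcripts differed between these conditions.

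Mitochondrial DNA is transcribed by a dedicated polymerase, POLRMT, into long transcripts that cover almost the whole of each strand. Most tRNA genes lie between the mRNA and rRNA genes and are cut out at both ends, by mitochondrial RNase P at the 5′ end and by ELAC2 at the 3′ end, which releases the neighbouring RNAs. The mRNAs encode core subunits of respiratory complexes I, III, IV and V, and the rRNAs and tRNAs serve the mitochondrial ribosome that translates them. Tetracyclines are known to act on that ribosome.

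The genes lie close together, and this matters for their counts. Of the 22 tRNA genes, 18 abut or overlap a neighbouring gene, and adjacent genes lie at most 31 bases apart, other than across the control region, where 1122 bases separate MT-TP from MT-TF on the circular genome. 5 pairs overlap, and the longest overlap, 46 bases, is between MT-ATP8 and MT-ATP6. The tRNA genes are 59 to 75 bases long, whereas the libraries were read from both ends with 150 bases per mate. Where a pair of reads touched more than 1 gene, each gene received an equal fraction of it, so between 34 and 37 of the 37 values in a library were not whole. Counts of a tRNA gene therefore contain reads from longer RNAs that cross it, and neighbouring genes are not independent measurements. The counting program recorded no strand option, so RNA from the minus-strand genes and RNA transcribed opposite to them cannot be told apart.

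The tRNA genes that passed the test are shown by sequence, because they make up 9 of the 11 mitochondrial genes called. The letters are the DNA of the gene in GRCh38, written 5′ to 3′ on the coding strand, with the anticodon in capitals. The anticodon was located as the expected triplet between the arms of its stem. On the plus strand 6 genes were higher in MYCN-induced cells. These were MT-TM for methionine (chrM:4402-4469), MT-TG for glycine (chrM:9991-10058), MT-TR for arginine (chrM:10405-10469), MT-TH for histidine (chrM:12138-12206), MT-TS2 for serine (chrM:12207-12265) and MT-TL2 for leucine (chrM:12266-12336).
MT-TM: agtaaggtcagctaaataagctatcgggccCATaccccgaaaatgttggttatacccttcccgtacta
MT-TG: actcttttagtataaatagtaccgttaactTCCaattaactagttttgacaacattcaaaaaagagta
MT-TR: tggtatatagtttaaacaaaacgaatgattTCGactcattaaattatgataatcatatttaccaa
MT-TH: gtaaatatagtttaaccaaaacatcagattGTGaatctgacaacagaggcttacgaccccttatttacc
MT-TS2: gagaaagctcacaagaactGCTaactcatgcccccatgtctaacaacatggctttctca
MT-TL2: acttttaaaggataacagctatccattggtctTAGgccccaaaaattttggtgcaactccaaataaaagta

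On the minus strand 3 tRNA genes were lower. These were MT-TN for asparagine (chrM:5657-5729), MT-TS1 for the other serine codon box (chrM:7446-7514) and MT-TE for glutamate (chrM:14674-14742).
MT-TN: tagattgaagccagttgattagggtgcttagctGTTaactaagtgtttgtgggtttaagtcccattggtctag
MT-TS1: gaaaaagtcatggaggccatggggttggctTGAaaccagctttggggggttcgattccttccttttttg
MT-TE: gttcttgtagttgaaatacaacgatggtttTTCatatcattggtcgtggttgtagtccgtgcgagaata

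MT-TS2 is the shortest of these genes with 59 bases, and its tRNA is known to lack the D arm. GC content spanned 23.1% to 45.8% in the 6 genes that were higher and 23.5% to 42.0% in the 8 other tRNA genes of the plus strand, so base composition did not separate them.

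MYCN itself checked the labels. It held 30.3, 35.5 and 32.4 CPM in control replicates 1, 2 and 3 and 211, 221 and 199 CPM in MYCN-induced replicates 1, 2 and 3, where CPM are TMM-normalized counts scaled to 1e6 per library. The libraries held 64500589 to 102249336 counted read pairs. The neuroblastoma markers HAND2 and GATA3 averaged 442 and 121 CPM in the controls, whereas ALB, PTPRC and CD68 of liver and blood cells averaged 0.230, 1.91 and 4.79 CPM and PECAM1 of endothelium stayed under the count minimum. No marker tested was called in edgeR, whereas 3 of 9 had an unadjusted p under 0.05 (18.7% of all genes) and DESeq2 called FOSL1 and VIM, markers of a mesenchymal state, higher (3.11% of all genes). Without MYCN-induced replicate 3, edgeR called all 3 mesenchymal markers higher (3.68% of all genes), with log2 fold changes of 0.97 for PRRX1, 0.66 for FOSL1 and 0.26 for VIM and adjusted p of 0.0273, 0.0119 and 0.0254. FOSL1 held 9.49 to 11.02 CPM in controls and 16.5, 15.3 and 36.9 CPM in MYCN-induced replicates 1, 2 and 3, and the part of these markers in the mitochondrial results was not tested. On the first principal component of all genes, MYCN-induced replicate 3 lay at 69.1, far from replicates 1 and 2 of its group (14.4 and 13.1), and the controls lay from -40.3 to -25.9. Results that rest on it are therefore given with and without it. The study describes 3 biologically independent experiments, the labels do not say what separates the replicates, and the p-values measure the spread between these libraries.

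The mitochondrial genes took a similar share of each library. They made up 14.1%, 13.4% and 13.6% of all counts in control replicates 1, 2 and 3 and 13.1%, 11.9% and 14.2% in the MYCN-induced ones, so the groups overlapped. In absolute terms this was 8423293 to 14418402 read pairs per library, and 11 to 13 of the 20 genes with the most counts were mitochondrial. The mRNAs accounted for 97.9% to 98.3% of the mitochondrial counts. tRNA genes took 1.78% ± 0.10 (SD, n = 3) in control and 1.82% ± 0.19 (SD, n = 3) in MYCN-induced libraries. Within bulk RNA, fewer mitochondrial genomes per cell and less RNA from each genome cannot be told apart. The overlap of the total rests on MYCN-induced replicate 3, as induced replicates 1 and 2 lay below all controls. The mean share differed by -0.69 percentage points, and by -1.27 without that replicate. The differences described next are in how the total was divided.

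Of the 37 genes, 6 were higher and 5 lower after MYCN induction, at a threshold of 0.05 on the adjusted p of edgeR's quasi-likelihood test over 29086 genes. Over all genes tested, 1.02% were called higher and 2.38% lower. The genes called higher were the 6 tRNA genes of the plus strand shown above. Those called lower were the mRNAs MT-CO1 and MT-ND4 and the tRNA genes MT-TN, MT-TS1 and MT-TE. Normalized counts did not overlap between the groups for 26 of the 37 genes, 13 higher and 13 lower, against 11.5% higher and 14.7% lower over all genes tested. The median log2 fold change was 0.13 over the 37 genes and -0.09 over the 13 mRNAs, beside 0.00 over all genes tested.

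The number of calls depended on single libraries. Without MYCN-induced replicate 3, 9 mitochondrial genes were called higher and 11 lower in edgeR, against 3.68% higher and 4.44% lower over all genes of that fit. Leaving out control replicate 2 left 4 higher and 0 lower in edgeR, with 0.063% higher and 0.252% lower over all genes, and 11 of the 37 had an unadjusted p under 0.05 in each direction, against 4.74% higher and 7.05% lower over all genes of that fit. DESeq2 called 10 of the 37 higher and 8 lower, against 3.11% higher and 4.12% lower over all genes. MT-TR, MT-TH, MT-TS2 and MT-TL2 were called higher whichever of the 6 libraries was left out, with adjusted p from 0.000861 to 0.0423 in edgeR.

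**Figure D1:**
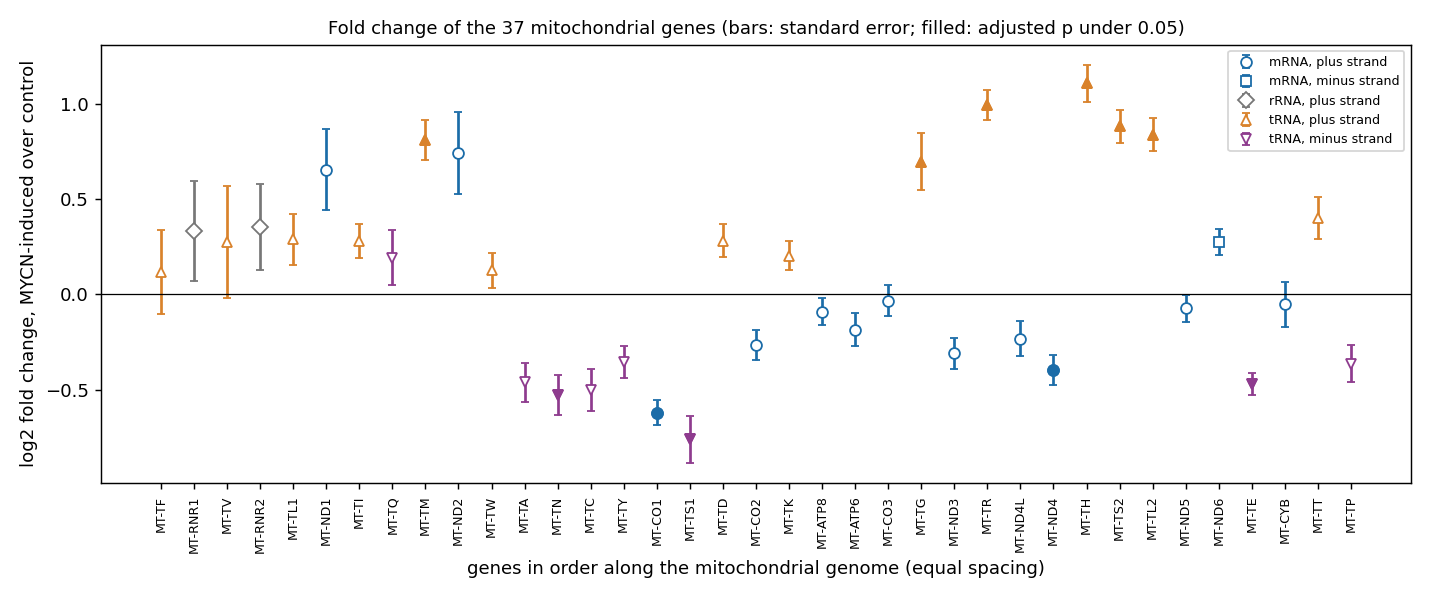
Log2 fold change of each mitochondrial gene (MYCN-induced over control, n = 3 libraries per group, bars are standard errors), with the genes in genome order on the x axis at equal spacing and filled symbols for adjusted p under 0.05 in edgeR. All 14 plus-strand tRNA genes lie above 0 and 7 of the 8 minus-strand tRNA genes lie below it, while the mRNAs lie from -0.62 to 0.74.

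Among the mRNAs of complex IV, cytochrome c oxidase, the largest difference was in MT-CO1 (chrM:5904-7445), which encodes the catalytic subunit. MT-CO1 held 16937, 16035 and 16668 CPM in control replicates 1, 2 and 3 and 10351, 10789 and 11142 CPM in MYCN-induced replicates 1, 2 and 3. All induced libraries lay below all controls. The log2 fold change was -0.62 (SE 0.07, adjusted p = 0.00542 in edgeR), which leaves 0.650 of the control level. The call held when each library except control replicate 2 was left out, without which the adjusted p in edgeR was 0.0513. MT-CO2, the next mRNA gene on the genome, held 12383 to 12855 CPM in controls and 9556 to 11201 CPM in MYCN-induced libraries. Its log2 fold change of -0.27 (SE 0.08) did not pass (adjusted p = 0.120 in edgeR). Without MYCN-induced replicate 3 MT-CO2 was called lower, with a log2 fold change of -0.31 (adjusted p = 0.0306 in edgeR). MT-CO3 overlapped between groups, at 9726 to 10114 CPM against 8867 to 10591 CPM. The 3 subunits of one complex thus differed by unequal amounts, and within libraries the ratio of MT-CO2 to MT-CO1 counts was 0.759, 0.772 and 0.762 in controls against 1.04, 0.886 and 1.01 in MYCN-induced libraries.

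Complex I, NADH dehydrogenase, takes 7 mitochondrial subunits, and they divided. MT-ND4 (chrM:10760-12137), a proton-pumping subunit, was the mitochondrial gene with the most counts in all 3 control libraries, at 23857, 22890 and 22889 CPM in replicates 1, 2 and 3. In MYCN-induced replicates 1, 2 and 3 MT-ND4 held 17409, 16482 and 18993 CPM, without overlap with the controls. Its log2 fold change was -0.40 (SE 0.08, adjusted p = 0.0372 in edgeR). The call held without MYCN-induced replicate 3 (adjusted p = 0.00468 in edgeR), whereas leaving out any other library gave adjusted p from 0.0881 to 0.190.

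MT-ND1 and MT-ND2, the most upstream mRNA genes, lay the other way but varied widely between the induced libraries. MT-ND2 (chrM:4470-5511) held 14083, 13604 and 13927 CPM in control replicates 1, 2 and 3 and 21218, 16328 and 32097 CPM in MYCN-induced replicates 1, 2 and 3. MT-ND1 (chrM:3307-4262) held 8136, 7976 and 8177 CPM in the same controls and 11203, 9212 and 17813 CPM in the same induced libraries. Induced replicate 3 was the highest for both genes and induced replicate 2 the lowest of its group, and every induced value lay above every control. Neither passed the test, with log2 fold changes of 0.74 (SE 0.21, adjusted p = 0.113) for MT-ND2 and 0.65 (SE 0.21, adjusted p = 0.154) for MT-ND1 in edgeR. MT-ND2 passed narrowly in 2 of the 6 fits with 1 library left out, at adjusted p = 0.0462 without MYCN-induced replicate 3 and 0.0491 without replicate 2 of that group in edgeR, with a log2 fold change of 0.44 in the former and 0.94 in the latter. MT-ND1 was not called without MYCN-induced replicate 3, with a log2 fold change of 0.34 (adjusted p = 0.0513 in edgeR). DESeq2 called both genes higher, with adjusted p of 0.0165 for MT-ND2 and 0.0461 for MT-ND1.

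The pair moved in step between libraries. Counts of MT-ND1 per count of MT-ND2 were 0.578, 0.586 and 0.587 in controls and 0.528, 0.564 and 0.555 in MYCN-induced libraries, a narrow range beside the spread of either gene. This ratio was nevertheless lower in every induced library than in every control. MT-ND2 and MT-CO1 are separated only by 5 tRNA genes, yet the ratio of their counts was 0.832, 0.848 and 0.836 in controls and 2.05, 1.51 and 2.88 in MYCN-induced replicates 1, 2 and 3. The mean ratio was 0.839 ± 0.00881 (SD, n = 3) in controls and 2.15 ± 0.689 (SD, n = 3) in MYCN-induced libraries, which did not overlap.

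MT-ND6 (chrM:14149-14673) encodes another membrane subunit of complex I and is the only mRNA gene of the minus strand. It held 3406, 3447 and 3405 CPM in control replicates 1, 2 and 3 and 4400, 4038 and 3970 CPM in MYCN-induced replicates 1, 2 and 3. The groups did not overlap, and the log2 fold change of 0.27 (SE 0.07) missed the threshold (adjusted p = 0.0777 in edgeR). It was called higher without MYCN-induced replicate 3 (log2 fold change 0.31, adjusted p = 0.0196 in edgeR) and by DESeq2 (adjusted p = 0.0114). With no strand option recorded, the MT-ND6 counts may hold RNA transcribed opposite to the gene. MT-ND5, whose gene abuts MT-ND6 on the other strand, held 8877 to 9432 CPM in controls and 8211 to 8971 CPM in MYCN-induced libraries, with overlap. MT-ND3 and MT-ND4L, small membrane subunits, had log2 fold changes of -0.31 (SE 0.08) and -0.23 (SE 0.09), with no overlap between the groups and no call. MT-ND4L was called lower only without MYCN-induced replicate 3 (adjusted p = 0.0491 in edgeR).

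For complex III and complex V no mRNA was called by edgeR or DESeq2, and none had an unadjusted p under 0.05. MT-CYB, cytochrome b of complex III, held 8467 to 8936 CPM in controls and 7106 to 9871 CPM in MYCN-induced libraries, with induced replicate 3 the highest and induced replicate 2 the lowest of all 6 libraries. MT-ATP6 and MT-ATP8, membrane subunits of ATP synthase, had log2 fold changes of -0.19 (SE 0.09) and -0.09 (SE 0.07). MT-ATP6 did not overlap between the groups, at 14275 to 15034 CPM against 11530 to 14038 CPM, whereas MT-ATP8 did.

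Expressed as shares of the mitochondrial counts, complex I mRNAs took more and complex IV mRNAs less of the total in every MYCN-induced library. Complex I took 48.4%, 48.7% and 48.4% in control replicates 1, 2 and 3 and 53.8%, 52.6% and 58.3% in the induced ones. Complex IV took 29.0%, 28.7% and 28.9% in controls and 24.4%, 25.4% and 21.0% in induced libraries. The members of each complex did not all follow its total. In complex I, MT-ND1, MT-ND2 and MT-ND6 took larger shares in every induced library. MT-ND3, MT-ND4L and MT-ND4 took smaller ones, with mean shares of 17.1% in controls and 13.4% in induced libraries for MT-ND4, and MT-ND5 overlapped. In complex IV, MT-CO1 and MT-CO2 took smaller shares and MT-CO3 overlapped. MT-ND2 alone took 10.2% in each control library and 16.3%, 14.2% and 21.1% in MYCN-induced replicates 1, 2 and 3, while MT-CO1 took 12.3%, 12.1% and 12.2% in controls and 7.97%, 9.37% and 7.32% in induced libraries. Shares of one total are bound to each other, so a larger share of MT-ND2 lowers the shares of the other genes, most in induced replicate 3. When the mitochondrial total was used as the library size in edgeR, 5 genes were called higher (MT-TM, MT-TR, MT-TH, MT-TS2 and MT-TL2) and 1 lower (MT-TS1), against 0.743% higher and 0.897% lower over all genes. On that scale the median of all genes shifted to 0.05. MT-CO1 and MT-ND4 were not called there, with log2 fold changes of -0.57 (SE 0.14, adjusted p = 0.0923) and -0.35 (SE 0.13, adjusted p = 0.275) in edgeR.

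**Figure D2:**
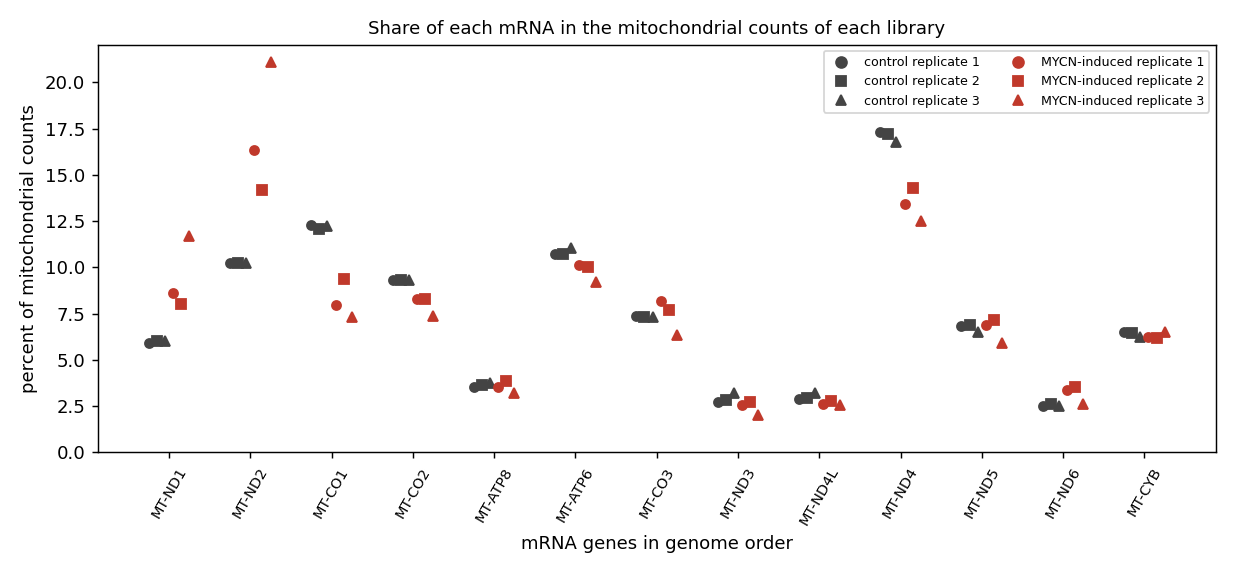
Percent of the mitochondrial counts taken by each of the 13 mRNA genes, with 1 point per library (control in grey, MYCN-induced in red, symbols give the replicate) and the genes in genome order. The MYCN-induced libraries lie above the controls at MT-ND1, MT-ND2 and MT-ND6 and below them at MT-CO1, MT-CO2 and MT-ND4, with induced replicate 3 farthest out at MT-ND2 (21.1%).

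The 2 rRNA genes encode the RNAs of the small and large mitochondrial ribosomal subunits. MT-RNR1 (chrM:648-1601) held 14.7, 13.7 and 12.1 CPM in control replicates 1, 2 and 3 and 22.02, 9.87 and 19.3 CPM in MYCN-induced replicates 1, 2 and 3. MT-RNR2 (chrM:1671-3229) held 44.8, 46.6 and 46.1 CPM in the controls and 68.4, 36.1 and 71.1 CPM in the induced libraries. For both genes, induced replicates 1 and 3 lay above all controls and induced replicate 2 below them. The log2 fold changes of 0.33 (SE 0.26, adjusted p = 0.557) and 0.35 (SE 0.23, adjusted p = 0.466) in edgeR were not called. Without MYCN-induced replicate 2, MT-RNR2 was called higher, with a log2 fold change of 0.61 (adjusted p = 0.0202 in edgeR). Ribosomal RNA was removed enzymatically before library preparation, and together these genes were 0.040% to 0.070% of the mitochondrial counts, so their counts carry the efficiency of that step. Its part in the difference between libraries was not tested. MT-RNR2 kept 3.05 to 3.80 counts per count of MT-RNR1 in controls and 3.10 to 3.69 in induced libraries, which overlap.

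Levels are given per length, as CPM per kb of gene. The tRNA genes are shorter than a mate of 150 bases and share read pairs with their neighbours. Their values per kb are therefore not on the same scale as those of the longer genes, and no ranking of RNA levels between the types follows. In controls the mRNAs spanned 5055 CPM per kb for MT-ND5 to 23848 CPM per kb for MT-ATP8, which shares reads with MT-ATP6 over their overlap. The rRNA genes had 14.2 and 29.4 CPM per kb. The tRNA genes spanned 63.0 CPM per kb for MT-TF to 5341 CPM per kb for MT-TE. MT-TF and MT-TV were the lowest tRNA genes, with 63.0 and 144 CPM per kb. Both abut an rRNA gene. MT-TL1, which abuts MT-RNR2 and lies 2 bases from MT-ND1, was the highest of the plus-strand tRNA genes with 1981 CPM per kb. The part of neighbouring genes in these levels was not tested. Minus-strand tRNA genes, apart from MT-TQ with 532 CPM per kb, had 1686 to 5341 CPM per kb in controls, above the levels of 13 of the 14 plus-strand tRNA genes, with MT-TL1 the exception.

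**Figure D3:**
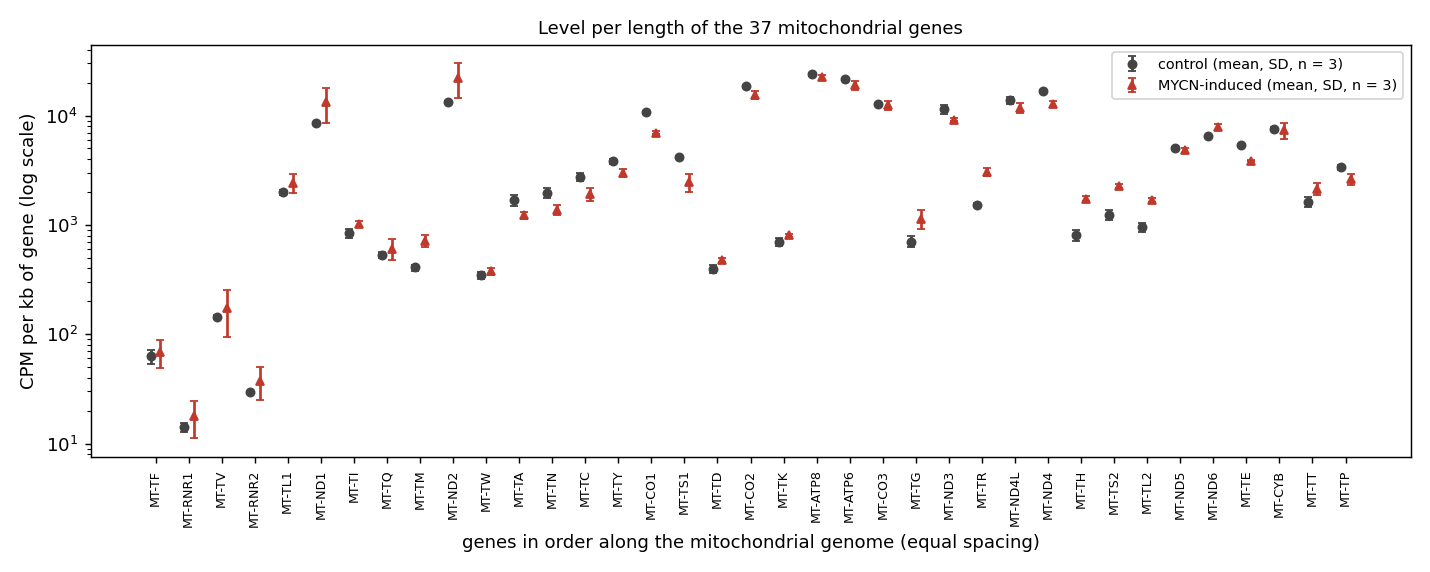
CPM per kb of gene for the 37 mitochondrial genes on a log axis, in genome order (control in grey circles, MYCN-induced in red triangles, mean and SD, n = 3 libraries per group). The rRNA genes and the tRNA genes MT-TF and MT-TV lie lowest, at 14.2 to 144 CPM per kb in controls. In controls the mRNAs lie highest, at 5055 to 23848 CPM per kb, apart from MT-ND5, which lies below MT-TE. In MYCN-induced libraries MT-ND5 (4801 CPM per kb) lies above MT-TE (3851 CPM per kb). The tRNA genes are shorter than a read, so their heights and those of the longer genes are not on the same scale.

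The tRNA genes differed by the strand of the gene. Strand here is the annotated one, since with no strand option recorded, RNA transcribed opposite to a gene cannot be told apart from its own. All 14 plus-strand tRNA genes had a log2 fold change above 0, with a mean of 0.52, and 6 of them were called higher. Of the 8 minus-strand tRNA genes, 7 had a log2 fold change below 0, with a mean over the 8 genes of -0.41, and 3 were called lower. Minus-strand genes gave 66.7%, 66.7% and 67.6% of all tRNA counts in control replicates 1, 2 and 3 and 47.2%, 47.0% and 52.1% in MYCN-induced replicates 1, 2 and 3. The groups did not overlap, and the means were 67.0% ± 0.54 (SD, n = 3) and 48.8% ± 2.89 (SD, n = 3). The difference in log2 fold change between the strands was 0.93 and was 0.885 to 0.997 when single libraries were left out. Within libraries the mean log2 level of the plus-strand genes less that of the minus-strand genes, relative to the control mean, was 1.02, 0.96 and 0.78 in MYCN-induced replicates 1, 2 and 3 and -0.03 to 0.03 in the controls. No test was run on this contrast, because it sums over genes that share reads and was known from earlier results.

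**Figure D4:**
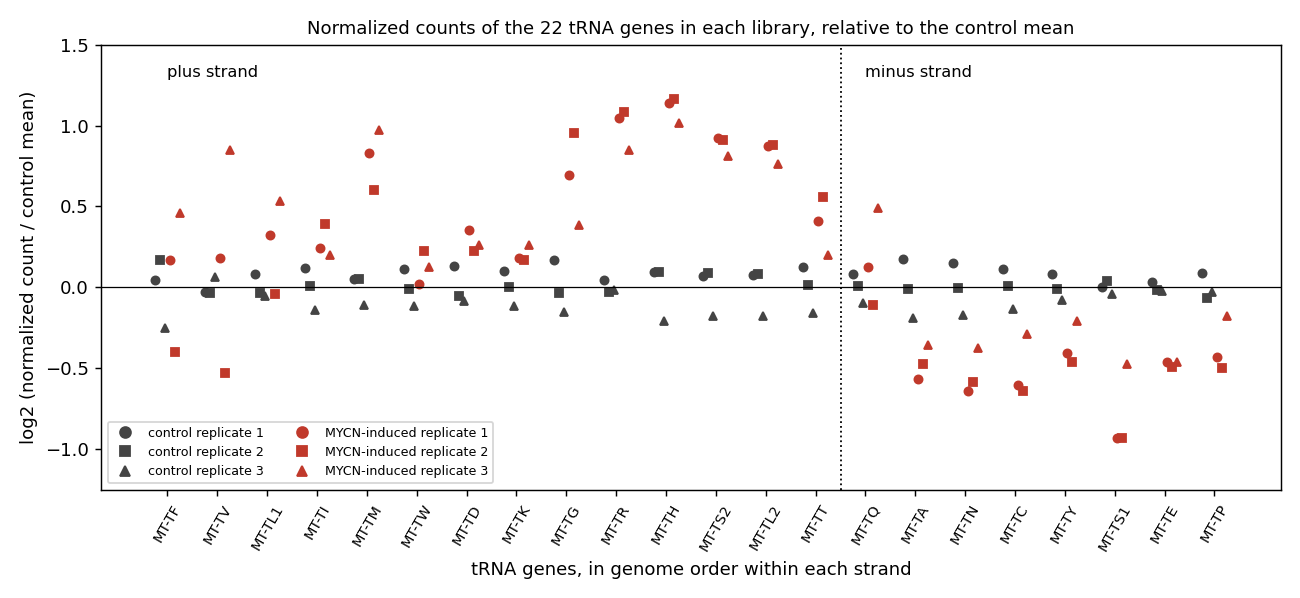
Normalized count of each of the 22 tRNA genes in each library, as the log2 ratio to the mean of the 3 control libraries (control in grey, MYCN-induced in red), with plus-strand genes to the left of the dotted line and minus-strand genes to the right. All induced points lie above all control points at MT-TM, MT-TG, MT-TR, MT-TH, MT-TS2 and MT-TL2. The same holds at MT-TI, MT-TD, MT-TK and MT-TT, which edgeR did not call. Induced points lie below all control points at every minus-strand gene except MT-TQ.

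The largest difference in either direction among the 37 genes was in MT-TH, with 59.3, 59.2 and 48.0 CPM in control replicates 1, 2 and 3 and 122, 124 and 112 CPM in MYCN-induced replicates 1, 2 and 3. Its log2 fold change was 1.11 (SE 0.10, adjusted p = 0.00344 in edgeR), or 2.16 times the control level. MT-TS2 and MT-TL2 follow MT-TH on the genome with no base between them, and these 3 genes fill the space between MT-ND4 and MT-ND5. MT-TS2 held 76.7, 77.4 and 64.6 CPM in controls and 138, 137 and 128 CPM in induced libraries, with a log2 fold change of 0.88 (SE 0.09, adjusted p = 0.00448 in edgeR). MT-TL2 held 71.4, 71.4 and 59.9 CPM in controls and 124, 124 and 115 CPM in induced libraries, with a log2 fold change of 0.84 (SE 0.09, adjusted p = 0.00494 in edgeR). Replicate 3 was the lowest of its group in all 3 genes in both conditions, and since read pairs are shared between them, the 3 genes are not independent measurements. The mRNAs on either side lay the other way or near 0, at -0.40 for MT-ND4 and -0.07 for MT-ND5. Per count of MT-ND4, MT-TH had 0.00248, 0.00259 and 0.00210 counts in controls and 0.00703, 0.00755 and 0.00591 in MYCN-induced libraries.

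MT-TR, between MT-ND3 and MT-ND4L, held 103, 97.0 and 97.9 CPM in control replicates 1, 2 and 3 and 204, 210 and 179 CPM in MYCN-induced replicates 1, 2 and 3. Its log2 fold change was 0.995 (SE 0.08, adjusted p = 0.00298 in edgeR). MT-TR abuts both mRNA genes, whose own log2 fold changes were -0.31 and -0.23. Its counts per count of MT-ND3 were 0.0274, 0.0260 and 0.0226 in controls and 0.0617, 0.0673 and 0.0578 in MYCN-induced libraries, so the tRNA gene and its neighbour separated within each library.

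MT-TG, between MT-CO3 and MT-ND3, held 53.8, 46.8 and 43.2 CPM in control replicates 1, 2 and 3 and 77.6, 93.0 and 62.5 CPM in MYCN-induced replicates 1, 2 and 3. Its log2 fold change of 0.70 (SE 0.15, adjusted p = 0.0486 in edgeR) was just inside the threshold. The call held without MYCN-induced replicate 3 (adjusted p = 0.00768 in edgeR) and was lost when any other library was left out, with adjusted p from 0.0913 to 0.219.

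MT-TM, which supplies the methionine tRNA for both initiation and elongation in mitochondria, abuts the start of MT-ND2. It held 28.7, 28.8 and 25.8 CPM in control replicates 1, 2 and 3 and 49.4, 42.1 and 54.5 CPM in MYCN-induced replicates 1, 2 and 3, a log2 fold change of 0.81 (SE 0.11, adjusted p = 0.0106 in edgeR). The call was lost in edgeR without MYCN-induced replicate 1 (adjusted p = 0.0524), control replicate 2 (0.0743) or control replicate 3 (0.0668). Unlike MT-TR and MT-TH, MT-TM differed as its neighbouring mRNA did. MT-TM had 0.00204, 0.00212 and 0.00185 counts per count of MT-ND2 in controls and 0.00233, 0.00258 and 0.00170 in MYCN-induced libraries, which overlap.

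The other 8 plus-strand tRNA genes had log2 fold changes from 0.12 for MT-TF to 0.40 for MT-TT, and none was called in edgeR. Of these 8, 4 had an unadjusted p under 0.05 (18.7% of all genes), and DESeq2 called 1, MT-TT, higher (3.11% of all genes). MT-TT, for threonine, lies at the end of the plus-strand gene order and held 96.7 to 118 CPM in controls and 124 to 159 CPM in MYCN-induced libraries. It was called higher without MYCN-induced replicate 3, with a log2 fold change of 0.50 (adjusted p = 0.0195 in edgeR). MT-TI, MT-TD and MT-TK also showed no overlap between groups, with log2 fold changes of 0.28, 0.28 and 0.20. MT-TL1, MT-TF, MT-TV and MT-TW overlapped. For MT-TV and MT-TF, as for the rRNA genes beside them, induced replicate 2 was the lowest of all 6 libraries.

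On the minus strand, MT-TS1 was the tRNA gene with the largest difference, at 289, 297 and 281 CPM in control replicates 1, 2 and 3 and 152, 152 and 208 CPM in MYCN-induced replicates 1, 2 and 3. Its log2 fold change was -0.76 (SE 0.12, adjusted p = 0.0218 in edgeR), 0.590 of the control level. The call held without MYCN-induced replicate 3 (log2 fold change -0.92, adjusted p = 0.00124 in edgeR), whereas leaving out any other library gave adjusted p from 0.0601 to 0.120. MT-TS1 abuts the end of MT-CO1 on the opposite strand, and the plus-strand MT-CO1 transcript is known to run on across this position. The ratio of MT-TS1 to MT-CO1 counts overlapped between the groups, at 0.0171, 0.0185 and 0.0169 in controls and 0.0147, 0.0141 and 0.0187 in MYCN-induced libraries. Without strand information the part of each transcript in these counts cannot be told apart.

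MT-TE lies between MT-ND6, on its own strand, and MT-CYB. It held 378, 365 and 363 CPM in control replicates 1, 2 and 3 and 267, 262 and 267 CPM in MYCN-induced replicates 1, 2 and 3. The log2 fold change was -0.47 (SE 0.06, adjusted p = 0.00796 in edgeR), and without control replicate 2 the adjusted p in edgeR was 0.0750. MT-TE and MT-ND6 abut, yet they separated within every library. Counts of MT-TE per count of MT-ND6 were 0.111, 0.106 and 0.107 in controls and 0.0608, 0.0649 and 0.0674 in MYCN-induced libraries. Both counts may hold RNA transcribed opposite to these genes.

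MT-TN belongs to a run of 5 tRNA genes between MT-ND2 and MT-CO1, of which the first, MT-TW, is on the plus strand and the other 4 are on the minus strand. MT-TN held 161, 144 and 128 CPM in control replicates 1, 2 and 3 and 92.4, 96.3 and 111 CPM in MYCN-induced replicates 1, 2 and 3. Its log2 fold change was -0.53 (SE 0.10, adjusted p = 0.0397 in edgeR). The call held without MYCN-induced replicate 3 (adjusted p = 0.0117 in edgeR), and leaving out any other library gave adjusted p from 0.0773 to 0.181. Its minus-strand neighbours MT-TA, MT-TC and MT-TY had log2 fold changes of -0.46 (SE 0.10), -0.50 (SE 0.11) and -0.35 (SE 0.08), with adjusted p of 0.0563, 0.0544 and 0.0674 in edgeR. None of these 3 genes overlapped between groups. Without MYCN-induced replicate 3 all 3 were called lower, as was MT-TP, with adjusted p of 0.0266, 0.00610, 0.00899 and 0.00768 in edgeR. MT-TW, next to them on the plus strand, held 21.7 to 25.5 CPM in controls and 23.9 to 27.4 CPM in MYCN-induced libraries, with overlap.

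MT-TQ, for glutamine, was the exception on the minus strand. It held 35.8 to 40.6 CPM in controls and 41.8, 35.6 and 53.9 CPM in MYCN-induced replicates 1, 2 and 3, with a log2 fold change of 0.19 (SE 0.14). This gene lies between MT-ND1 and MT-ND2 and overlaps MT-TI by 3 bases, and its induced libraries ranked as those of MT-ND1 and MT-ND2 did, with replicate 3 highest and replicate 2 lowest.

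**Figure D5:**
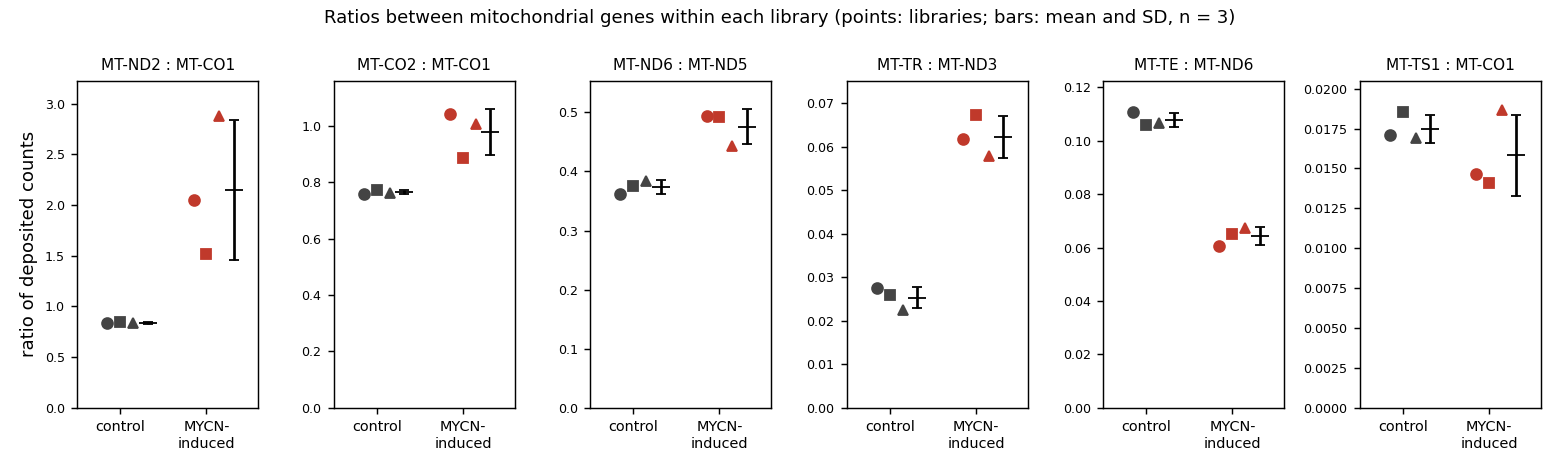
Ratios of deposited counts between pairs of mitochondrial genes within each library (control in grey, MYCN-induced in red, symbols give the replicate, bars are mean and SD, n = 3, each y axis starts at 0). MT-ND2 to MT-CO1, MT-CO2 to MT-CO1, MT-ND6 to MT-ND5 and MT-TR to MT-ND3 were higher in every induced library, MT-TE to MT-ND6 was lower in every induced library, and MT-TS1 to MT-CO1 overlapped.

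Mitochondrial transcripts are made and processed by proteins encoded in the nucleus, and 50 such genes were examined from a list written from general knowledge. All 50 were tested and 0 were called in edgeR, with 10 at an unadjusted p under 0.05 (18.7% over all genes) and a smallest adjusted p of 0.0515, for REXO2, an oligoribonuclease. DESeq2 called 4 of them higher (MTERF3, PNPT1, REXO2 and PUS1) and none lower, against 3.11% and 4.12% over all genes. The median log2 fold change of the 50 genes was 0.08, with 39 above 0, beside 0.00 and 49.9% above 0 over all genes. POLRMT held 17.3, 25.6 and 28.5 CPM in controls and 27.7, 28.9 and 34.7 CPM in MYCN-induced libraries, which overlap. TFAM, which packages mitochondrial DNA and starts transcription, had a log2 fold change of 0.15 (SE 0.09). TRMT10C of mitochondrial RNase P had -0.22 (SE 0.14), with MYCN-induced replicate 3 lowest at 35.1 CPM against 48.3 and 53.5 CPM in the other induced libraries. ELAC2 had 0.11 (SE 0.07). LRPPRC, which binds and stabilizes mitochondrial mRNAs, had 0.23 (SE 0.07) and did not overlap between groups, at 293 to 316 CPM in controls and 329 to 379 CPM in MYCN-induced libraries. Without MYCN-induced replicate 3, 5 of the 50 genes were called higher and none lower in edgeR, against 3.68% and 4.44% over all genes of that fit. These were MTERF3, SSBP1, LRPPRC, PNPT1 and REXO2. Their log2 fold changes in that fit lay between 0.29 and 0.48.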

How the data were processed

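RNA-seq libraries of 3 control and 3 MYCN-induced cultures were made after removal of ribosomal RNA. The authors deposited estimated counts of uniquely aligned read pairs per gene on GRCh38 (STAR 2.7.1a), without normalization. The file header names featureCounts 1.6.4 with no strand option, whereas the submitters' processing notes name featureCounts 1.5.1 and the methods a strand option. The 92 spike-in rows held 0 counts and were left out. Symbols came from GENCODE release 44, which matched 60437 of 60651 genes (99.6%) and gave all 37 mitochondrial genes the same coordinates.

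For the fit, estimated counts were rounded. Genes reaching 10 counts in 3 or more libraries (29086) entered edgeR 4.0.16, run under R 4.3.3 (TMM, quasi-likelihood test, all 6 libraries, no block, Benjamini-Hochberg over all genes tested). The standard error is the size of the log2 fold change divided by the square root of F. DESeq2 1.42.0 was an alternative. Counting error is small at 64500589 to 102249336 counts per library, and the spread between libraries sets the precision. Replicates differed beyond sampling noise (chi-square per gene 12.1 to 146), so all 6 libraries were kept. On simulated counts the test was checked for MYCN-induced against control with 29086 genes, where it called 146 of 200 genes changed 2-fold (73%) and 7 unchanged genes.

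Full values are given for genes past the threshold, the rRNA genes and MT-ND6, and for MT-ND1, MT-ND2, MT-CO2 and other genes named after their values were seen. POLRMT, TFAM, TRMT10C, ELAC2 and LRPPRC are named in any case. The members and lists were chosen with earlier results of these data known. Alternatives were other normalizations (including the mitochondrial total), count filters, thresholds, a replicate block and leaving out each library.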

Additional observations from a re-analysis of the deposited data

How the results depend on the processing

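The direction of the difference between tRNA strands (0.885 to 0.997 with single libraries left out) and of the median of the 13 mRNAs (-0.18 to -0.06 with single libraries left out, -0.05 with the mitochondrial total as library size) held in every alternative run. The 6 genes called higher became 10 with DESeq2 (which called 3.11% of all genes higher and 4.12% lower) and 4 to 9 with single libraries left out. The 5 called lower became 9 with library size only, 8 with DESeq2 and 1 with the mitochondrial total as library size (0.897% of all genes). They became 3 with the replicate block, 2 at adjusted p under 0.01 and 10 at adjusted p under 0.1. The share of all genes called is not given for library size only, the replicate block or these thresholds. A change particular to the mitochondrial genes therefore cannot be read from those counts. With single libraries left out, 0 to 11 were called lower (0 without control replicate 2, where 72 of 28577 genes were called lower in all, and 11 without MYCN-induced replicate 3, where 4.44% of all genes were). Over the 37 genes and 14 refits, 450 outcomes kept both direction and side of the threshold, 27 moved past the threshold, 36 lost it and 5 changed sign. The sign changes were MT-TF (-0.086) and MT-TV (-0.130) without MYCN-induced replicate 3, MT-CO3 (0.016 with the mitochondrial total, 0.0282 without MYCN-induced replicate 2) and MT-CYB (0.0518 without MYCN-induced replicate 2), none of them called. Log2 fold changes with single libraries left out were -0.086 to 0.325 for MT-TF, -0.130 to 0.554 for MT-TV, -0.0923 to 0.0282 for MT-CO3 and -0.181 to 0.0518 for MT-CYB. The causes were not tested. Libraries with the same replicate number deviated together with correlations of 0.216, -0.0188 and 0.0739, against a mean of -0.0467 for other pairs, so the numbers were not taken to pair the libraries, and with the replicate block as a paired fit MT-ND4 and MT-TN were no longer called. The share of mitochondrial counts differed by -0.69 percentage points. With single libraries left out it differed by -1.27 (without MYCN-induced replicate 3) to -0.10 (without MYCN-induced replicate 2). The share of tRNA genes among the mitochondrial counts differed by 0.04 percentage points, and by -0.06 to 0.13 with single libraries left out.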

Other observations

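Stretches of nuclear DNA on chromosome 1 resemble parts of the mitochondrial genome, and read pairs that matched both equally well are not among the unique alignments counted. Of 13 listed nuclear near-copies, 7 were found by name and tested, and none was called in edgeR (smallest adjusted p of 0.109). In edgeR 2 of the 7 had an unadjusted p under 0.05, against 18.7% of all genes. DESeq2 called 1, MTCO1P12, lower, against 4.12% of all genes. MTND2P28 held 15.9, 18.9 and 18.1 CPM in control replicates 1, 2 and 3 and 27.2, 18.6 and 49.4 CPM in MYCN-induced replicates 1, 2 and 3, with the same order of induced libraries as MT-ND2. MTCO1P12 held 6.34, 6.01 and 6.39 CPM in controls and 3.94, 3.09 and 5.12 CPM in MYCN-induced libraries. It was called lower without MYCN-induced replicate 3 (log2 fold change -0.83, adjusted p = 0.0143 in edgeR), where 4.44% of all genes were. MTATP6P1 was the most counted copy, at 743 to 803 CPM in controls and 602 to 863 CPM in induced libraries. RNA from these copies and mitochondrial RNA aligned there cannot be told apart from the counts.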
